A study of Saccharomyces cerevisiae with 6 samples.

Results

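The 48 annotated introns of 48 genes for proteins of the large ribosomal subunit were compared between yeast libraries with and without the splicing factor Prp18p. They were taken from the 281 annotated introns of the junction tables as the introns of genes marked as ribosomal protein genes (RPGs) and named RPL, without *RPL7A*, *RPL7B*, *RPL22A*, *RPL22B*, *RPL25*, *RPL30*, *RPL42A* and *RPL42B*. Of the 48 genes, 44 form 22 pairs of paralogs, A and B, and *RPL28*, *RPL29*, *RPL32* and *RPL39* are single genes. The RNA came from 2 haploid strains of the BY4741 background, with 3 libraries of each. The *upf1Δ* strain carries *upf1Δ::HIS3*, written as *upf1-delta::HIS3MX6* in its genotype label, and the *prp18Δupf1Δ* strain carries *prp18Δ::kanMX6* as well. Both strains therefore lack Upf1p, the helicase of nonsense-mediated mRNA decay (NMD), and every level reported here is one in cells without NMD. Cultures were grown in the rich medium YPD to mid-log phase, total RNA was extracted with phenol and chloroform, and stranded libraries were made from mRNA. The tables hold no intron of *PRP18* or *UPF1*, so the deletions could not be checked in these values. The labels number the libraries of each strain but do not say what a replicate is, and a p-value here measures only how these 6 libraries spread, which may be technical.

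Pre-mRNA splicing cuts each intron at its 5′ splice site (5′SS), joins that end to an adenosine at the branch point, and then cuts at the 3′ splice site (3′SS) and joins the exons. In budding yeast the branch point lies in the sequence TACTAAC and the 3′SS usually ends in TAG or CAG, together written YAG. Prp18p acts with Slu7p at the second step, when the spliceosome picks the 3′SS. The RPGs hold a large share of all spliced transcripts in growing yeast, most of their introns are long for this organism, and the genome duplication that yeast went through left many of them as paralog pairs whose proteins are nearly identical while their introns have diverged. Introns of RPGs are known as efficiently spliced and as points where the level of single ribosomal proteins is regulated.

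All 281 introns of the tables matched the splice sites of the reference genome R64. The 48 introns were between 147 nt (*RPL2A*) and 561 nt (*RPL27A*) long with a median of 402.5 nt. 44 of them lay within the coding sequence, and those of *RPL24A*, *RPL24B*, *RPL29* and *RPL32* lay before the annotated start codon. The *RPL29* intron also lies in the annotation of *YFR032C-B* on the same strand. The 5′SS read GTATGT in 39 introns, GTACGT in 5 and another sequence in the rest, the 3′SS read TAG in 26 and CAG in 22, and the branch sequence was TACTAAC in 47. The following sequences run from the branch sequence to 12 nt past the annotated 3′SS on the strand of the gene. They are shown because the alternative junctions described further on end in them. Capitals mark the annotated 3′SS and the alternative 3′SS in the stretch shown whose use passed the test described further on. In *RPL16B* the TAT before the annotated TAG overlaps it, and both stand as TATAG.
*RPL24A* (chrVII:437930-437991, minus strand): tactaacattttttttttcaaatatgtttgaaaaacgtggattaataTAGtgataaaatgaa
*RPL24B* (chrVII:787775-787857, minus strand): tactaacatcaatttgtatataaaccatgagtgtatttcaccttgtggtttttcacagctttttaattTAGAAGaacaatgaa
*RPL2A* (chrVI:221256-221308, minus strand): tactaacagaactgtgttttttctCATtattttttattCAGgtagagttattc
*RPL2B* (chrIX:317133-317183, plus strand): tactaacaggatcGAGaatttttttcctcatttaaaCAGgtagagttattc
*RPL16A* (chrIX:99084-99158, minus strand): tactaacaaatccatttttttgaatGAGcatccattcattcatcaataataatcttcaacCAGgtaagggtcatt
*RPL16B* (chrXIV:494513-494555, minus strand): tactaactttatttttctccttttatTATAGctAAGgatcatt
*RPL23A* (chrII:60182-60243, minus strand): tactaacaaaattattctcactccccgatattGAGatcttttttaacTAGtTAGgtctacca
*RPL23B* (chrV:397224-397293, plus strand): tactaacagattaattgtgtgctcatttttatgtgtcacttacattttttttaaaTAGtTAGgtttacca
*RPL37A* (chrXII:522977-523040, plus strand): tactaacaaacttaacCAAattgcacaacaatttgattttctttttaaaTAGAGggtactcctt
*RPL37B* (chrIV:1450446-1450497, minus strand): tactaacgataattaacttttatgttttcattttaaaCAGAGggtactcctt
*RPL34A* (chrV:269740-269810, minus strand): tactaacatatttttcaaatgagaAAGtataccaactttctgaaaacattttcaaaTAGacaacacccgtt
*RPL29* (chrVI:223429-223495, minus strand): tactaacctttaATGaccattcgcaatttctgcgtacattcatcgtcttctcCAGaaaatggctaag
*RPL32* (chrII:45934-45989, plus strand): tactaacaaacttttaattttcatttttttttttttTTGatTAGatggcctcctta

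Each library was described by the reads that cross the annotated exon junction of an intron and by the unspliced reads that run across its 5′SS or 3′SS, which the tables sum over both sites and divide by 2. Splicing efficiency (SE) is the share of annotated junction reads in the sum of annotated and unspliced reads. The libraries held between 791813 and 1502370 annotated junction reads over all introns, of which the 48 introns took 41.0%, 40.2% and 40.4% in *upf1Δ*, against 43.8%, 43.0% and 43.0% in *prp18Δupf1Δ*. Their share of the unspliced reads was 36.8%, 32.1% and 32.2% in *upf1Δ* and 28.5%, 29.4% and 29.2% in *prp18Δupf1Δ*. Thus the 48 introns held a larger part of the spliced and a smaller part of the unspliced reads in *prp18Δupf1Δ*, without overlap between the strains, in an exact permutation test that reached p = 0.1 for both, the smallest that 3 libraries against 3 allow. The *RPL28* intron alone held 53.0%, 45.4% and 45.1% of the unspliced reads of the 48 introns in *upf1Δ*. In *prp18Δupf1Δ* it held 31.9%, 22.1% and 22.8%. The unspliced share of the other introns was not computed by itself, so a smaller share is not shown for them. Replicate 1 stood apart from replicates 2 and 3 in both strains, with higher SE. In these bulk samples, less splicing in every cell cannot be told apart from a larger loss in some of the cells.

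Loss of Prp18p went with lower SE of most of the 48 introns, but from a high start. For *upf1Δ* the median SE over the 48 introns was 97.9%, 97.0% and 97.1%, and for *prp18Δupf1Δ* it was 96.5%, 92.3% and 92.3%. The means were 97.3% ± 0.447 and 93.7% ± 2.42 (SD, n = 3), and the strains did not overlap (two-sided exact permutation test over the 6 libraries, p = 0.1, the smallest possible). An SE over 95% was found for 39, 33 and 35 introns in *upf1Δ* but for 28, 13 and 13 in *prp18Δupf1Δ*. All 48 introns had a lower mean SE in *prp18Δupf1Δ*, and in 37 the strains did not overlap, against 82.7% of all introns tested. The change of the spliced to unspliced ratio was tested with edgeR's quasi-likelihood test over the 272 introns of the tables with enough reads. It passed an adjusted p of 0.05 (Benjamini-Hochberg) in the direction of less splicing in 37 of the 48, against 81.6% of all introns tested. It passed in the direction of more splicing in 0 of the 48, also at an unadjusted p of 0.05 and with DESeq2, and in 0.0% of all introns. The median log2 change of the ratio was -1.56 over the 48 introns and -1.92 over all introns tested. The per-library plot of SE shows the spread.

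**Figure D1:**
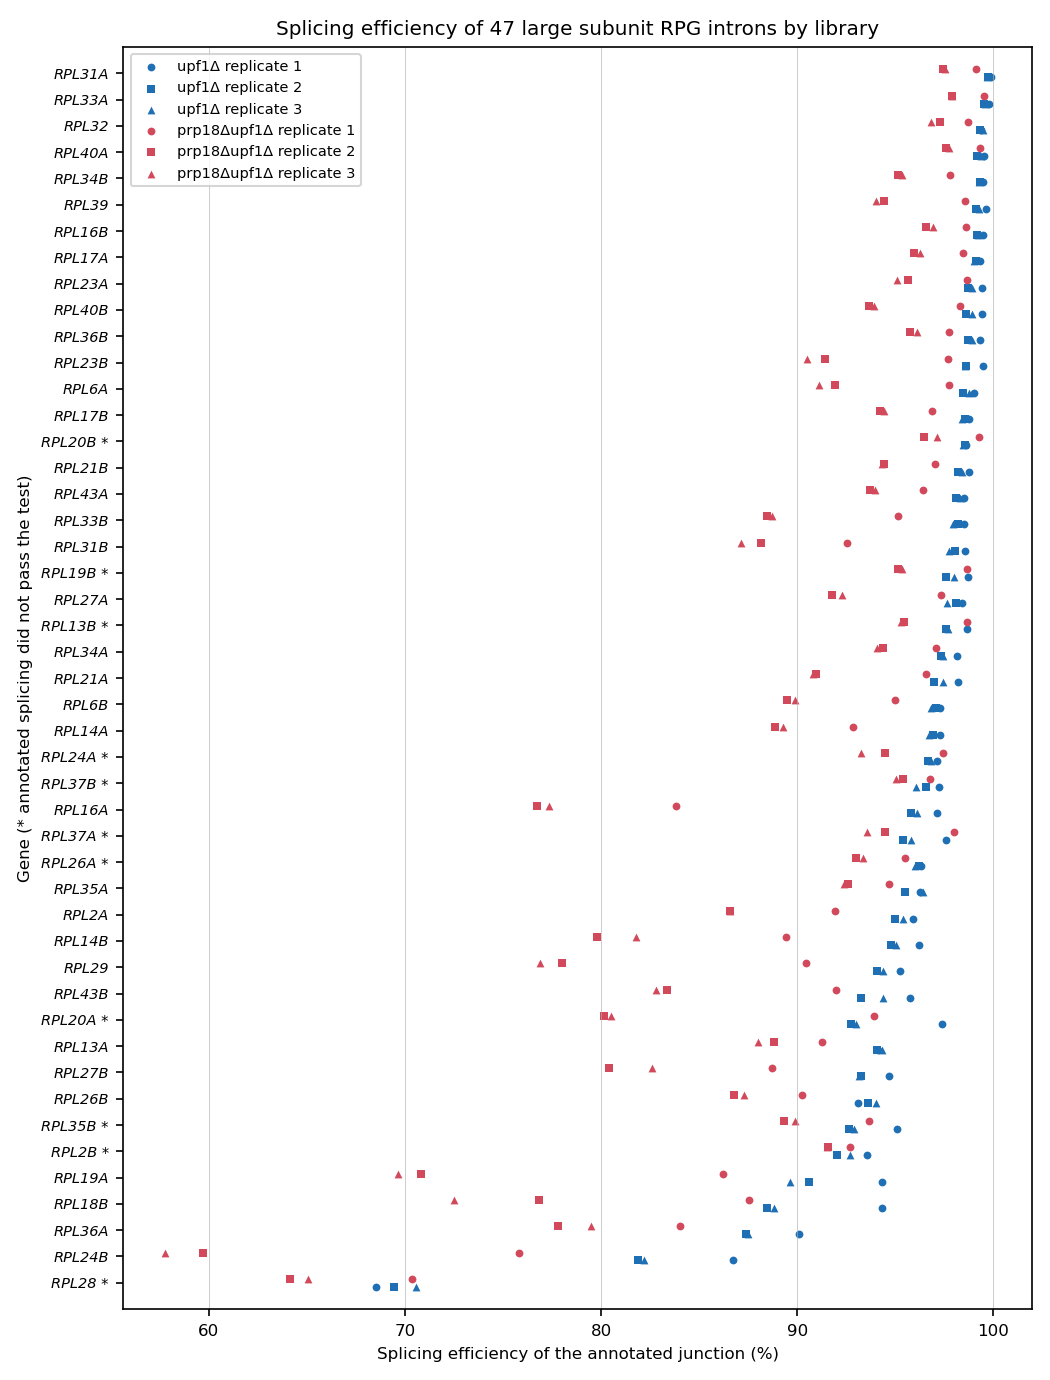
Splicing efficiency in percent (horizontal axis) of the annotated junction of 47 of the 48 introns (rows, ordered by mean in *upf1Δ*) in the 3 *upf1Δ* libraries (blue) and the 3 *prp18Δupf1Δ* libraries (red), with a symbol for each replicate number. Red points lie to the left of blue without overlap in 36 rows, replicate 1 of *prp18Δupf1Δ* lies nearest to *upf1Δ* in most rows, and the 11 genes with an asterisk did not pass the test.

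The largest falls were found for *RPL31A*, *RPL16A* and *RPL31B*. *RPL31A*, whose protein lies near the exit of the nascent peptide tunnel, had an SE of 99.9%, 99.7% and 99.7% in *upf1Δ* and of 99.1%, 97.4% and 97.5% in *prp18Δupf1Δ*, a log2 change of the ratio of -3.03 ± 0.55 (SE of the fit; edgeR adjusted p = 0.00141). All 6 values were high, and the strains did not overlap. Its paralog *RPL31B* started lower, at 98.6%, 98.1% and 97.7%, and lay at 92.5%, 88.2% and 87.2% in *prp18Δupf1Δ* (log2 change -2.63, edgeR adjusted p = 0.000357). *RPL16A* had 97.2%, 95.8% and 96.1% against 83.8%, 76.8% and 77.4% (log2 change -2.79 ± 0.32, edgeR adjusted p = 0.000215). In *RPL16A* the gap between the strains was far wider than the spread within either. *RPL39*, which encodes a very small protein in the wall of the exit tunnel, had 99.6%, 99.1% and 99.3% against 98.6%, 94.4% and 94.0% (log2 change -2.61, edgeR adjusted p = 0.00547). The other 6 of the 10 largest falls were those of *RPL23B*, *RPL34B*, *RPL33B*, *RPL6A*, *RPL40B* and *RPL14B*. Their log2 changes lay between -2.61 and -1.97, and none of them overlapped between the strains. In *RPL40B*, whose protein is made as a fusion with ubiquitin, SE was 99.4%, 98.6% and 98.9% in *upf1Δ* and 98.3%, 93.7% and 93.9% in *prp18Δupf1Δ* (log2 change -2.16, edgeR adjusted p = 0.0106).

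A large change of the ratio in a well spliced intron moves SE by few points, and the largest fall in points was that of *RPL24B*, at 19.2. SE counts the annotated junction alone, and *RPL24B* also gained reads on an alternative 3′SS, described further on, that SE leaves out. Its rank with those reads counted was not computed. RPL24 proteins take part in a bridge between the subunits, and yeast lives without them. SE of *RPL24B* was 86.7%, 81.9% and 82.2% in *upf1Δ* and 75.8%, 59.7% and 57.7% in *prp18Δupf1Δ* (log2 change -1.48 ± 0.38, edgeR adjusted p = 0.00719). It was the second least spliced of the 48 introns in *upf1Δ*, after *RPL28* and before *RPL36A*, *RPL18B* and *RPL19A*. *RPL36A* had 90.1%, 87.4% and 87.5% against 84.0%, 77.8% and 79.5%, and *RPL19A* 94.3%, 90.6% and 89.6% against 86.2%, 70.8% and 69.6%. Both fell (edgeR adjusted p = 0.0211 and 0.00778), and the 2 strains did not overlap in either. *RPL18B* fell as well, from 94.3%, 88.5% and 88.8% to 87.5%, 76.8% and 72.5% (edgeR adjusted p = 0.0261). At the other end, *RPL31A*, *RPL33A* and *RPL32* had the highest SE in *upf1Δ*, and all 3 fell. *RPL33A* lay at 99.8%, 99.5% and 99.6% against 99.5%, 97.9% and 97.9% (log2 change -1.88, edgeR adjusted p = 0.0218), and *RPL32* at 99.4%, 99.3% and 99.5% against 98.7%, 97.3% and 96.8% (log2 change -1.93, edgeR adjusted p = 0.0023).

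The 11 introns that did not pass the test were those of *RPL2B*, *RPL13B*, *RPL19B*, *RPL20A*, *RPL20B*, *RPL24A*, *RPL26A*, *RPL28*, *RPL35B*, *RPL37A* and *RPL37B*. *RPL28* (*CYH2*), the gene of cycloheximide resistance whose unspliced RNA is a textbook substrate of NMD, had the lowest SE in *upf1Δ* at 68.5%, 69.4% and 70.6% and lay at 70.4%, 64.1% and 65.1% in *prp18Δupf1Δ*. One library, replicate 1 of *prp18Δupf1Δ*, lay among the *upf1Δ* values. The log2 change was -0.19 ± 0.27 with an edgeR adjusted p of 0.522, and without that library the adjusted p was 0.0322. *RPL2B*, whose protein sits next to the peptidyl transferase centre, moved least, with 93.5%, 92.1% and 92.7% against 92.7%, 91.6% and 91.5% (log2 change -0.17 ± 0.27, edgeR adjusted p = 0.566). Its strains overlapped, as did those of *RPL37A* at 97.6%, 95.4% and 95.8% against 98.0%, 94.5% and 93.6% (log2 change -0.23, edgeR adjusted p = 0.683). *RPL24A*, the paralog of *RPL24B*, had 97.2%, 96.7% and 96.8% against 97.4%, 94.5% and 93.3% (log2 change -0.59, edgeR adjusted p = 0.196). *RPL26A* did not overlap between the strains, at 96.3%, 96.2% and 96.0% against 95.5%, 93.0% and 93.4%, yet missed the threshold (edgeR adjusted p = 0.0599). *RPL20A* had a log2 change as large as many that passed, at -1.55 ± 0.64, with an edgeR adjusted p of 0.0512.

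The count of 37 depended on which libraries were used. With the replicate number as a block it was 43, the 6 added being *RPL13B*, *RPL19B*, *RPL20A*, *RPL24A*, *RPL26A* and *RPL35B* with edgeR adjusted p between 3.22e-06 and 0.0282. Without replicate 1 of *prp18Δupf1Δ* it was 47, and without its replicate 2 or 3 it was 25. The share over all introns tested was not counted for these settings, so these counts describe the 48 introns alone. The same 25 introns passed in the fit of all libraries and in each of the 6 fits that left out 1 library. Among the 12 that did not were those of *RPL13A*, *RPL18B*, *RPL21A*, *RPL23A*, *RPL26B*, *RPL27A*, *RPL33A*, *RPL34A*, *RPL35A*, *RPL36A* and *RPL40A*.

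Introns of the small subunit genes (RPS) and of genes outside the RPGs were measured in the same libraries. Median SE of the 45 RPS introns was 97.1%, 95.7% and 96.3% in *upf1Δ* and 93.5%, 90.0% and 89.6% in *prp18Δupf1Δ*. That of the 168 non-RPG introns with enough reads was 94.0%, 91.5% and 91.1% against 79.7%, 70.5% and 69.6%. The large subunit introns lay above both in every library. Their lead over the RPS introns was 0.715, 1.38 and 0.877 points in *upf1Δ* and 2.95, 2.28 and 2.72 points in *prp18Δupf1Δ* (exact permutation test, p = 0.1, the smallest possible). Since SE is bounded, the same was computed for the log2 of the spliced to unspliced ratio, where the lead over the RPS introns did not differ between the strains beyond their spread (exact p = 0.6). The lead over non-RPG introns on that log2 scale was 1.57, 1.61 and 1.73 in *upf1Δ* and 2.80, 2.32 and 2.40 in *prp18Δupf1Δ* (exact p = 0.1, the smallest possible). Splicing fell in 35 of 45 RPS introns and in 144 of 168 non-RPG introns. The median log2 changes were -1.70 and -2.16.

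Among the 48 introns, those with a higher SE in *upf1Δ* had the larger fall on the log2 scale, with a Spearman correlation of -0.57 over 48 introns. The *upf1Δ* values enter both measures, so this is a description only. Intron length correlated with the change at a Spearman value of 0.10 and the distance from the branch adenosine to the 3′SS at -0.21, over the same 48 introns. The 5 introns with a GTACGT 5′SS all fell, against 95.5% of all introns tested with this 5′SS, and 29 of the 39 with GTATGT fell, against 80.8%. By 3′SS, 21 of 26 TAG introns and 16 of 22 CAG introns fell, against 81.9% and 80.2%.

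SE can fall because unspliced reads rise, because spliced reads fall, or by both, so each level was tested on its own, with unspliced reads counted over both splice sites and each level scaled to 1000000 annotated plus unspliced reads over all introns of the library. Unspliced reads rose in 33 of the 48 introns, against 75.7% of all introns tested, and fell in 0, against 0.0% of all introns. They rose in 42 without replicate 1 of *prp18Δupf1Δ* and in 45 without replicate 1 of both strains. For these 2 fits the share over all introns was not counted. No intron reached an unadjusted p of 0.05 in the direction of a fall, DESeq2 called 0, and TMM scaling called *RPL28* alone. The median log2 change was 1.34 over the 48 introns and 1.70 over all. Unspliced reads of *RPL31A* were 61.5, 106 and 114 scaled reads in *upf1Δ* and 373, 901 and 822 in *prp18Δupf1Δ*, 7.44-fold higher (log2 change 2.89 ± 0.43, edgeR adjusted p = 0.000604). *RPL17A*, for a protein that lines the exit tunnel, followed with 146, 193 and 196 against 628, 1526 and 1472 scaled reads (6.77-fold, edgeR adjusted p = 0.000509). *RPL40B* had 81.8, 195 and 167 against 349, 1210 and 1232 scaled reads (6.30-fold, edgeR adjusted p = 0.00209). In all 3 genes replicate 1 of *prp18Δupf1Δ* was the lowest of its strain and still above every *upf1Δ* library. *RPL14A* rose with the least spread, from 1055, 1056 and 1029 to 5486, 7120 and 6641 scaled reads (6.13-fold, log2 change 2.62 ± 0.16, edgeR adjusted p = 1.81e-05).

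*RPL28* stood apart by its level. Unspliced, it had 17253, 16374 and 15846 scaled reads in *upf1Δ* and 13982, 15246 and 15689 in *prp18Δupf1Δ*. This was 53.0%, 45.4% and 45.1% of the unspliced reads of all 48 introns in *upf1Δ* and 31.9%, 22.1% and 22.8% in *prp18Δupf1Δ*. Every *prp18Δupf1Δ* library lay below every *upf1Δ* library in unspliced *RPL28* reads, but the log2 change of -0.14 did not pass the test (edgeR adjusted p = 0.173). With the replicate number as a block, unspliced reads rose in 40 introns, the 7 added being *RPL6B*, *RPL13A*, *RPL13B*, *RPL19B*, *RPL24A*, *RPL34A* and *RPL36A*.

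Annotated junction reads moved less. They fell in 13 of the 48 introns and rose in 4, against 30.5% and 6.25% of all introns tested. The median log2 change was -0.23, with -0.24 over all introns. *RPL14A* and *RPL17A*, which were also among the largest rises of unspliced reads, had more spliced reads too. *RPL14A* had 18760, 16601 and 15314 scaled reads in *upf1Δ* and 35591, 28459 and 27610 in *prp18Δupf1Δ* (log2 change 0.86, edgeR adjusted p = 0.00321). *RPL17A* had 10860, 10868 and 10006 against 19834, 18224 and 19040 (log2 change 0.85, edgeR adjusted p = 0.000566). *RPL37B* rose from 7410, 6647 and 6035 to 9727, 11064 and 11000 scaled reads (log2 change 0.66, edgeR adjusted p = 0.00397), and *RPL40B* by 0.39 on the log2 scale (edgeR adjusted p = 0.0105). The strains did not overlap in any of these 4. *RPL40B* lost its call under TMM scaling, with DESeq2 and without replicate 2 of *upf1Δ*, where the edgeR adjusted p was 0.0606.

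The largest falls of spliced reads were those of *RPL16A*, *RPL18B*, *RPL31B* and *RPL24B*. *RPL16A* had 4325, 5557 and 5620 scaled reads in *upf1Δ* and 2085, 2630 and 2783 in *prp18Δupf1Δ* (log2 change -1.05, edgeR adjusted p = 0.00321). *RPL18B* had 2147, 2339 and 2484 against 1208, 1125 and 1099 (log2 change -1.02, edgeR adjusted p = 0.000821), while its unspliced reads, at 259, 609 and 625 against 344, 680 and 835, overlapped between the strains. *RPL31B* fell by 0.84 and *RPL24B* by 0.74 on the log2 scale (edgeR adjusted p = 0.000821 and 0.00457). Of the 37 introns with less splicing, 31 had more unspliced reads and 11 had fewer spliced reads by these tests. The same split was not counted over all introns with less splicing, so it describes these 37 only. In introns such as those of *RPL6B*, *RPL13A*, *RPL18B*, *RPL34A* and *RPL36A* the ratio fell without a rise of unspliced reads that passed. These counts moved with the libraries and the scaling, and outside the main fits the share over all introns was not counted for either level. Spliced reads fell in 27 introns and rose in 7 with the replicate block, and fell in 23 introns and rose in 6 without replicate 1 of *prp18Δupf1Δ*. They fell in 22 introns with DESeq2. Under TMM and DESeq2 scaling the median over all introns shifted from -0.24 to -0.33 and -0.40 for spliced reads and from 1.70 to 1.60 and 1.53 for unspliced reads.

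**Figure D2:**
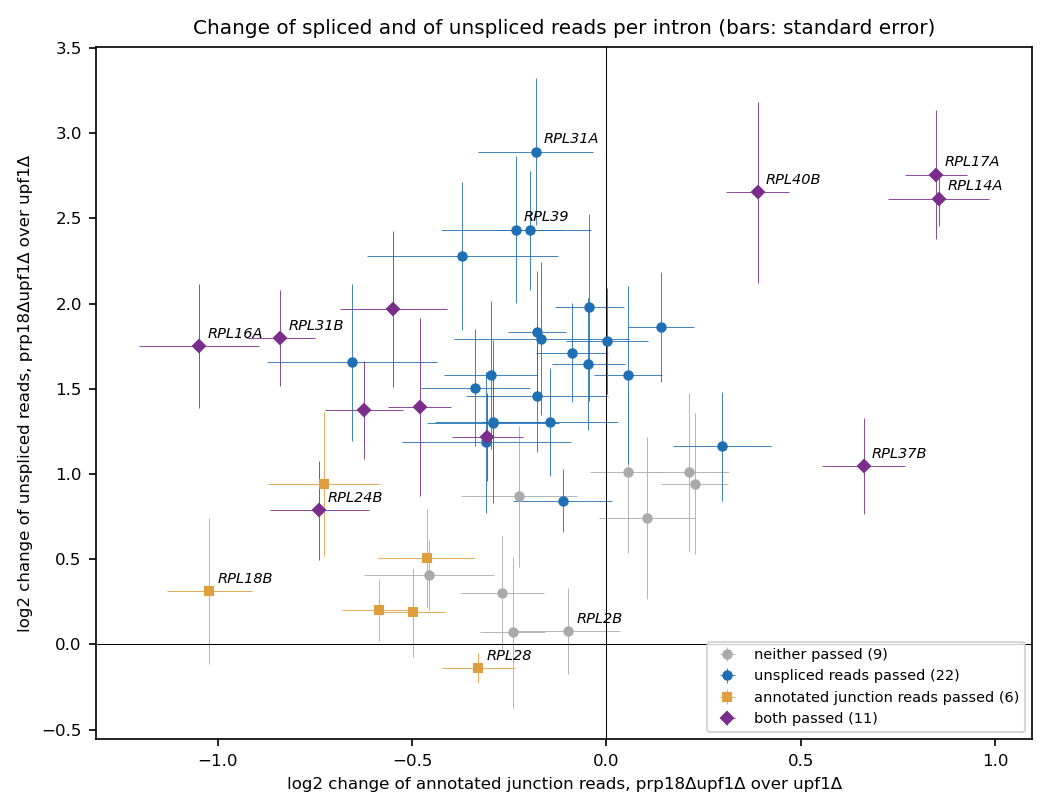
Log2 change of annotated junction reads (horizontal axis) against the log2 change of unspliced reads (vertical axis), *prp18Δupf1Δ* over *upf1Δ*, for the 48 introns, both scaled to the library's reads over all introns; bars are the standard errors of the fit. In 22 introns only unspliced reads passed the test, in 6 only annotated junction reads, in 11 both and in 9 neither, and *RPL14A*, *RPL17A*, *RPL37B* and *RPL40B* lie to the upper right.

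Alternative junctions were weighed as the fraction of annotated splicing (FAnS), the reads of an alternative junction as a percentage of the annotated junction reads of the same intron. After the quality filters, 219 alternative junctions fell in the 48 introns, and *RPL18B* had 0. Of these, 102 joined the annotated 5′SS to an alternative 3′SS, 65 joined an alternative 5′SS to the annotated 3′SS, and 52 used another site at both ends. In FAnS they were rare, since 12 exceeded a mean of 0.3% in either strain and 3 exceeded 1%. By edgeR over all 884 filtered junctions of the tables, 25 of the 219 rose and 30 fell, against 21.0% and 10.7% of all. All 25 that rose were alternative 3′SS. They were 25 of the 102 alternative 3′SS in these introns, against 32.0% that rose among the alternative 3′SS of all introns. Of the 30 that fell, 20 were alternative 5′SS. They were 20 of the 65 in these introns, against 26.3% that fell among the alternative 5′SS of all introns.

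Summed over each intron, alternative 3′SS reads were 0.120%, 0.132% and 0.153% of the annotated reads of the 48 introns in *upf1Δ* and 0.170%, 0.200% and 0.215% in *prp18Δupf1Δ* (exact permutation test, p = 0.1, the smallest possible). *RPL24B* alone carried most of this difference. Without it the values were 0.117%, 0.129% and 0.149% against 0.125%, 0.145% and 0.169%, and the strains overlapped (exact p = 0.5). Alternative 3′SS junctions were found in 39 introns, of which 38 had enough reads for the test. The summed FAnS rose in 15 and fell in 5, against 48.0% and 12.0% of all introns tested. Without replicate 1 of both strains 10 rose.

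The most used alternative junction in *prp18Δupf1Δ* was in *RPL24B*. Its AAG, 3 nt downstream of the annotated TAG and ahead of the start codon, was used at 0.533%, 0.635% and 0.894% of annotated splicing in *upf1Δ* and at 13.8%, 15.8% and 15.2% in *prp18Δupf1Δ*. The reads behind these values were 16, 18 and 27 against 250, 209 and 157. Every *prp18Δupf1Δ* library was far above every *upf1Δ* library (log2 change 4.43 ± 0.29, edgeR adjusted p = 2.23e-20). In the sequence above the annotated and the alternative site stand next to each other, 65 and 68 nt from the branch adenosine. The *RPL24A* sequence has TGA at that place, and *RPL24A* has no such junction.

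A large rise was also found in *RPL2B*, the intron whose SE moved least. Its GAG, only 10 nt from the branch adenosine, precedes the annotated CAG by 23 nt. FAnS of this site was 0.0337%, 0.0586% and 0.0559% in *upf1Δ* and 0.790%, 0.960% and 0.825% in *prp18Δupf1Δ*, from 3, 6 and 7 against 61, 72 and 59 reads (log2 change 4.05 ± 0.39, edgeR adjusted p = 1.18e-13). The 2 groups lay more than 10-fold apart. Its paralog *RPL2A* has no such GAG between its branch sequence and its 3′SS. A CAT 14 nt before the 3′SS of *RPL2A* rose, with 0, 0 and 2 reads against 4, 6 and 2 (log2 change 3.07, edgeR adjusted p = 0.00929), a call lost in 2 of the 6 fits that left out 1 library (edgeR adjusted p of 0.0550 and 0.0750). Of the 215 gapped reads on the *RPL2B* junction, BBMap alone placed 106 and STAR alone 109.

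*RPL16A* used a GAG 35 nt upstream of its CAG at 1.06%, 1.13% and 1.12% in *upf1Δ* and at 2.85%, 3.36% and 3.36% in *prp18Δupf1Δ* (log2 change 1.53, edgeR adjusted p = 3.33e-07). The unscaled reads on this junction were 68, 101 and 106 in *upf1Δ* and 88, 104 and 97 in *prp18Δupf1Δ*, in libraries of different depth. In *RPL16B* the AAG that follows the annotated TAG by 5 nt had 2, 0 and 1 reads in *upf1Δ* and 15, 11 and 18 in *prp18Δupf1Δ* (log2 change 4.37 ± 0.69, edgeR adjusted p = 4.64e-07). Of its 54 gapped reads, 53 were placed by BBMap alone.

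*RPL23A* gained at 2 sites on either side of its annotated TAG. The TAG 4 nt downstream was used at 0.122%, 0.184% and 0.110% in *upf1Δ* and at 0.936%, 0.788% and 0.686% in *prp18Δupf1Δ* (log2 change 2.54, edgeR adjusted p = 4.10e-09). The GAG 15 nt upstream was used at 0.0609%, 0.0691% and 0.0803% against 0.411%, 0.372% and 0.568% (log2 change 2.63, edgeR adjusted p = 4.88e-07). At both sites the strains lay apart in every library. The same second TAG follows the annotated one in *RPL23B* and rose there too (log2 change 1.61, edgeR adjusted p = 0.00507), a call lost without replicate 3 of *prp18Δupf1Δ* (0.0645). Of the 198 gapped reads on the downstream TAG of *RPL23A*, 185 were placed by BBMap alone, and the repeat of bases around it lets the junction shift by 2 nt.

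In *RPL37A* and *RPL37B* the last base of the annotated 3′SS is followed by AG, so that a GAG ends 2 nt further on. This GAG rose in both paralogs. It was used at 0.0365%, 0.0187% and 0.0295% in *upf1Δ* and at 0.299%, 0.269% and 0.325% in *prp18Δupf1Δ* in *RPL37B* (log2 change 3.33, edgeR adjusted p = 1.40e-07), and its rise in *RPL37A* was 2.66 on the log2 scale (edgeR adjusted p = 0.0132). The *RPL37A* call was lost without replicate 2 or 3 of *upf1Δ* or replicate 3 of *prp18Δupf1Δ* (edgeR adjusted p of 0.0632, 0.0699 and 0.103). A site ending in TTG, 5 nt before the annotated TAG of *RPL32*, had 0%, 0.00394% and 0.00698% against 0.107%, 0.0827% and 0.0833% (log2 change 4.38, edgeR adjusted p = 7.19e-07). Further such TTG sites rose in *RPL20B*, *RPL26B* and *RPL31B*. The ATG 40 nt upstream in *RPL29*, only 9 nt from the branch adenosine, rose by 2.57 on the log2 scale (edgeR adjusted p = 0.000292). Three-base ends without a final G rose as well, as TAT at 2 nt before the annotated site in *RPL16B* and *RPL31B* and AAT at the same place in *RPL31A*. The calls of *RPL16B* and *RPL31A* at these sites were each lost in 4 of the 6 fits that left out 1 library, and that of the *RPL31B* TTG in 2 (edgeR adjusted p up to 0.0741, 0.269 and 0.0988). In *RPL17B*, *RPL27B* and *RPL36A* a site without any read in *upf1Δ* appeared in *prp18Δupf1Δ*. Taking 3 reads over the 3 *upf1Δ* libraries as the limit that a count of 0 allows, AAG in *RPL17B* was at least 3.63-fold higher, TCG in *RPL27B* at least 3.17-fold and AGG in *RPL36A* at least 3.45-fold (edgeR adjusted p = 0.00931, 0.0193 and 0.0148). These 3 rest on 8, 6 and 6 reads. They met the filter of 6 gapped reads over the 6 libraries through *prp18Δupf1Δ* alone, so their folds and adjusted p are partly set by that filter. Their calls were lost in 2, 3 and 2 of the 6 fits that left out 1 library, with edgeR adjusted p up to 0.110 without replicate 3 of *prp18Δupf1Δ* in *RPL17B* and up to 0.321 and 0.120 without its replicate 1 in *RPL27B* and *RPL36A*. Of the 25 sites that rose, 13 passed in every such fit, and of the 30 junctions that fell, 12 did. The AAG of *RPL16B*, the CAT of *RPL2A* and the TTG of *RPL32* had few or no reads in each *upf1Δ* library. These sites met the read filter mostly through *prp18Δupf1Δ*, so their folds and adjusted p are partly set by it too.

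The 25 sites that rose lay in 21 genes, 16 of them upstream of the annotated 3′SS by 2 to 40 nt and 9 downstream by up to 11 nt. 5 of the 25 lay a multiple of 3 nt from the annotated site, and none was closer than 9 nt to the branch adenosine. By sequence, 5 were GAG, 4 AAG, 4 TTG, 3 TAT, 2 ATG and 2 TAG, and 5 other ends had 1 each. Of 18 alternative YAG sites in the 48 introns, 2 rose and 3 fell, against 17.6% and 15.2% of such sites in all introns. Of the 24 sites ending in AAG or GAG, 9 rose and 4 fell, against 38.8% and 9.09%. Of the 28 other sites with a final G, 8 rose and 0 fell by edgeR, against 44.2% and 1.28%, where 1 reached an unadjusted p of 0.05 in the direction of a fall and DESeq2 called 0. Of the 32 without a final G, 6 rose and 2 fell, against 21.6% and 6.03%.

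**Figure D3:**
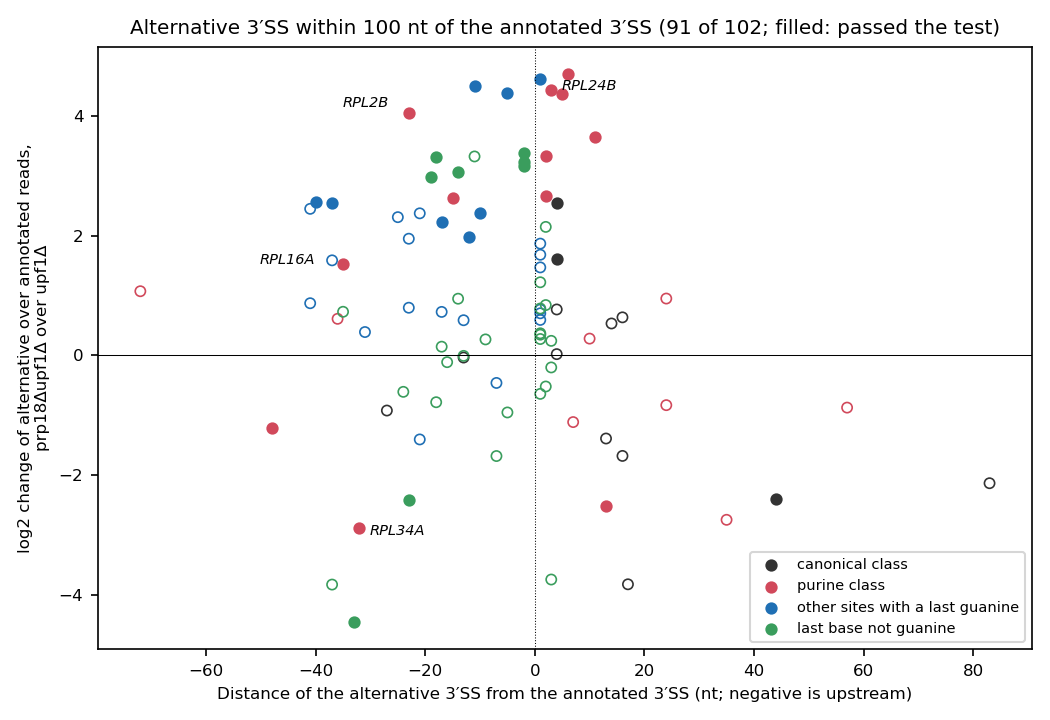
Log2 change of alternative over annotated reads, *prp18Δupf1Δ* over *upf1Δ* (vertical axis), against the distance in nt of the alternative 3′SS from the annotated 3′SS (horizontal axis; negative is upstream), for the 91 of 102 alternative 3′SS within 100 nt. Filled points passed the test; colours separate sites ending in a pyrimidine, A and G (canonical class), in a purine, A and G (purine class), other sites with a last guanine and sites without one. The 25 filled points above 0 all lie within 50 nt of the annotated site. Fitted values of sites without a read in 1 strain are drawn but depend on the fit.

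Alternative 3′SS also fell in some introns. *RPL34A* had the most used alternative 3′SS of the 48 introns in *upf1Δ*, an AAG 32 nt before its annotated TAG, at 2.26%, 2.16% and 2.28% of annotated splicing. In *prp18Δupf1Δ* this site lay at 0.248%, 0.285% and 0.376%, with 242, 303 and 363 reads against 22, 27 and 30 (log2 change -2.89 ± 0.31, edgeR adjusted p = 6.46e-12). It lay 21 nt from the branch adenosine. The direction was opposite to that of the AAG in *RPL24B*, in the same libraries and with the same 3 bases. A CAA 33 nt upstream in *RPL37A*, 13 nt from the branch adenosine, fell from 0.189%, 0.156% and 0.201% to 0%, 0.0205% and 0% (log2 change -4.45, edgeR adjusted p = 3.18e-05). Far upstream sites in *RPL26B* and *RPL13B*, 397 and 322 nt before the annotated 3′SS, had no read in *prp18Δupf1Δ* and were at least 4.14-fold and 3.93-fold lower. Both met the read filter through *upf1Δ* alone, and the CAA of *RPL37A* met it mostly through that strain. In all, 9 of the 102 alternative 3′SS fell, in 8 genes, against 7.65% of the alternative 3′SS of all introns. 4 of the 9 were AAG.

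Summed per intron, the largest rises of alternative 3′SS were those of *RPL24B*, *RPL2B*, *RPL16B*, *RPL37B*, *RPL34B* and *RPL36B* beside *RPL36A*, which had 0 reads in *upf1Δ*. *RPL24B* rose from 0.699%, 0.741% and 0.927% in *upf1Δ* to 13.8%, 16.0% and 15.3%. *RPL2B* rose from 0.0675% ± 0.0176 to 0.907% ± 0.116 (SD, n = 3), and the strains did not overlap in either intron. *RPL34B* had an adjusted p of 0.0500 from 2 reads against 8, lost its call with the replicate block (edgeR adjusted p = 0.0817), and overlapped between the strains. The calls of *RPL36A* and *RPL36B* were lost without replicate 1 of *prp18Δupf1Δ* (edgeR adjusted p = 0.0931 and 0.135). Falls were found in *RPL17A*, *RPL21B*, *RPL34A*, *RPL37A* and *RPL39*. *RPL34A* fell from a mean of 2.34% to 0.397%. *RPL39* had 5, 4 and 3 reads in *upf1Δ* and 0 in every *prp18Δupf1Δ* library, at least 2.73-fold lower. Without replicate 3 of *upf1Δ* the 5 falls became 3, with *RPL17A* and *RPL21B* lost (edgeR adjusted p = 0.0816 and 0.0821).

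Alternative 5′SS moved the other way. Their reads summed to 0.0736%, 0.0699% and 0.0749% of the annotated reads of the 48 introns in *upf1Δ* and to 0.0190%, 0.0240% and 0.0185% in *prp18Δupf1Δ* (exact permutation test, p = 0.1, the smallest possible). The 3 values of each strain lay close together and far from those of the other. Such junctions were found in 35 introns, and 31 had enough reads. FAnS of alternative 5′SS fell in 19 of the 31, against 41.8% of all introns tested, and rose in 0, against 4.08%. An unadjusted p of 0.05 in the direction of a rise was reached by 0 of the 31, and DESeq2 called 0. Without replicate 1 of both strains the 19 falls became 10.

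*RPL2B*, which gained an alternative 3′SS, lost alternative 5′SS. Its site GTATGA, 246 nt into the intron, was used at 0.450%, 0.478% and 0.527% in *upf1Δ* and at 0.0388%, 0.0667% and 0.0419% in *prp18Δupf1Δ* (log2 change -3.27, edgeR adjusted p = 7.41e-09). *RPL33B* used a GTATGA 134 nt into its intron at 0.654%, 0.411% and 0.344% against 0.0274%, 0.0917% and 0.0977% (log2 change -2.64, edgeR adjusted p = 6.69e-05). *RPL40B* used GTTTGT 216 nt into its intron at 0.488%, 0.436% and 0.457% against 0.149%, 0.0948% and 0.0611% (log2 change -2.12, edgeR adjusted p = 7.88e-06). None of these overlapped between the strains. *RPL24B*, too, lost a site, GTACAT 163 nt into the intron, from 0.433%, 0.600% and 0.530% to 0.0551%, 0.151% and 0.0969% (log2 change -2.34, edgeR adjusted p = 0.0051), a call that was lost without replicate 1 of *prp18Δupf1Δ* (edgeR adjusted p = 0.0632).

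9 of the 20 alternative 5′SS that fell had no read in *prp18Δupf1Δ*. They met the filter of 6 gapped reads over the 6 libraries through *upf1Δ* alone, the strain with more annotated junction reads. This count and the folds below are therefore partly set by the filter. The site GTTGTT in *RPL37B*, 306 nt into the intron, had 15 reads in *upf1Δ* and was at least 6.10-fold lower (edgeR adjusted p = 0.000525). GTAGTA in *RPL21A* was at least 3.69-fold lower, GTTTGG in *RPL35B* at least 3.61-fold and GTATCA in *RPL2B* at least 3.53-fold. Of the 20, 18 lay within the intron, 2 lay in the first exon, and 17 began with GT. They came from 17 genes. Summed per intron, *RPL37B* fell by 4.25, *RPL21A* by 4.18, *RPL19B* by 3.51 and *RPL2B* by 3.33 on the log2 scale, and in *RPL35B*, *RPL23B*, *RPL35A* and *RPL36B*, with 0 reads in *prp18Δupf1Δ*, the fall was at least 3.61-fold, 3.13-fold, 2.49-fold and 2.10-fold. Against 26.3% of all alternative 5′SS that fell and 2.23% that rose, the 65 sites in the 48 introns had 20 falls and 0 rises by edgeR. DESeq2 called 9 falls and 0 rises, and 0 sites reached an unadjusted p of 0.05 in the direction of a rise.

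Junctions with another site at both ends numbered 52 in 37 introns. 41 of them had the length of the annotated intron. By edgeR, 1 of the 52 fell, against 3.5% of such junctions in all introns, and 0 rose, against 1.4%, also by DESeq2 and at an unadjusted p of 0.05. The fall was in *RPL28*, with 12 reads in *upf1Δ* and 0 in *prp18Δupf1Δ*, at least 2.48-fold lower, and was lost without replicate 1 or 3 of *prp18Δupf1Δ* (edgeR adjusted p of 0.0903 and 0.0665). This junction, too, met the read filter through *upf1Δ* alone.

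**Figure D4:**
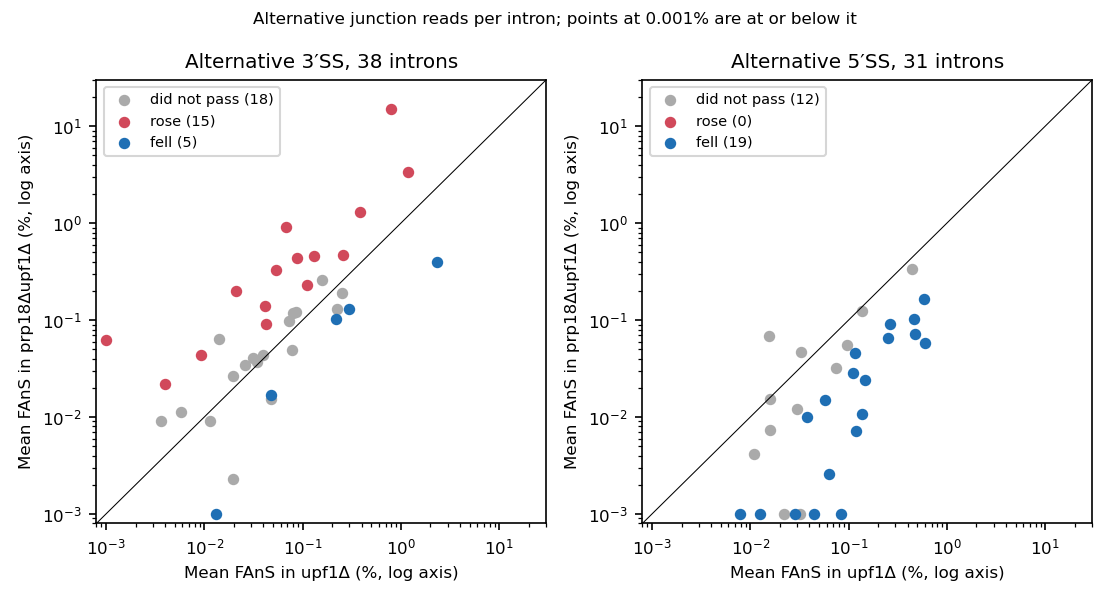
Mean FAnS in percent per intron in *upf1Δ* (horizontal, log axis) and in *prp18Δupf1Δ* (vertical, log axis) for alternative 3′SS in 38 introns (left) and alternative 5′SS in 31 introns (right), with values at or below 0.001% drawn at 0.001%. On the left 15 introns rose and 5 fell, with *RPL24B* highest, and on the right 19 fell and 0 rose.

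The paralogs of a pair encode nearly the same protein, so their introns were set against each other within each library by the log2 of B's spliced to unspliced ratio over A's, with edgeR over 45 RPG pairs. In *upf1Δ* the paralogs differed in 13 of the 22 pairs, against 57.8% of all pairs, with B higher in 6 and A in 7. In *prp18Δupf1Δ* they differed in 13, against 55.6%, with B higher in 5 and A in 8. In both strains 11 of the 22 pairs passed, a share near that over all 45 RPG pairs. A had the higher ratio in all 3 *upf1Δ* libraries in 13 pairs and B in 7, and these shares were also near those over all pairs. By the test on single introns, both paralogs lost splicing in 14 pairs, against 62.2% of all RPG pairs. In 6 pairs (*RPL2*, *RPL13*, *RPL19*, *RPL24*, *RPL26* and *RPL35*) 1 paralog did, and neither passed in *RPL20* and *RPL37*. For pairs with 1 paralog or neither, the share over all RPG pairs was not counted.

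The widest gaps in *upf1Δ* were in *RPL36* and *RPL31*, in opposite directions, and in *prp18Δupf1Δ* in *RPL24* and *RPL16*. The log2 of B over A in *RPL36* was 3.99, 3.47 and 3.68 in *upf1Δ*, against 3.05, 2.68 and 2.68 without Prp18p. The fitted values were 3.71 (edgeR adjusted p = 1.47e-07) and 2.80 (3.55e-06), with B the better spliced. *RPL31* had -3.51, -2.81 and -2.96 against -3.22, -2.34 and -2.54 (fitted -3.08 and -2.69, edgeR adjusted p = 9.98e-06 and 5.34e-05), with A the better spliced in every library. *RPL24* followed with -2.38, -2.67 and -2.73 against -3.60, -3.52 and -3.34 (fitted -2.60 and -3.48, edgeR adjusted p = 2.77e-05 and 1.55e-06). B gave 44.7%, 41.9% and 42.9% of the spliced *RPL24* reads in *upf1Δ* and 31.3%, 27.2% and 25.7% in *prp18Δupf1Δ*. Thus A was the better spliced *RPL24* copy throughout, and the larger part of the spliced reads came from A in all 6 libraries. *RPL16* went the other way, with 2.47, 2.36 and 2.38 against 3.76, 3.09 and 3.22 (fitted 2.40 and 3.35, edgeR adjusted p = 4.21e-05 and 1.55e-06). *RPL19* had 2.18, 2.06 and 2.49 against 3.53, 3.01 and 3.16 (fitted 2.24 and 3.22, edgeR adjusted p = 0.000996 and 3.59e-05). In both pairs B was the better spliced in each library. *RPL33*, *RPL27* and *RPL43* had A ahead in both strains, with fitted values between -2.83 and -1.50, and *RPL13* and *RPL20* had B ahead, with 1.63 to 2.97. *RPL6* passed in *upf1Δ* alone, with A ahead (-1.28, edgeR adjusted p = 0.0291), and *RPL26* and *RPL40* in *prp18Δupf1Δ* alone, also with A ahead (-1.08 and -1.44, edgeR adjusted p = 0.0095 and 0.0365). *RPL6* did not pass when any *upf1Δ* library was left out (edgeR adjusted p of 0.0622 to 0.124), nor *RPL26* and *RPL40* without replicate 2 or 3 of *prp18Δupf1Δ* (0.0599 to 0.0733). In *upf1Δ* the call of *RPL13* was lost without replicate 1 of that strain, and that of *RPL20* without its replicate 2 or 3. The call of *RPL20* was then at an edgeR adjusted p of 0.0671 or 0.0608 and that of *RPL13* at 0.059.

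*RPL34* was the pair with the widest change of the gap. The log2 of B over A was 1.81, 2.00 and 1.86 in *upf1Δ* and 0.42, 0.22 and 0.37 in *prp18Δupf1Δ*. *RPL34B* gave 30.7%, 22.7% and 24.5% of the unspliced *RPL34* reads in *upf1Δ* and 55.8%, 49.6% and 47.8% in *prp18Δupf1Δ*. The gap passed the test in *upf1Δ* (1.89, edgeR adjusted p = 0.000449) and not in *prp18Δupf1Δ* (0.34, edgeR adjusted p = 0.449). The limma alternative passed the gap in *prp18Δupf1Δ* (limma adjusted p = 0.0225). *RPL2* had -0.69, -0.71 and -0.71 in *upf1Δ* and 0.15, 0.75 and 0.75 in *prp18Δupf1Δ*, so that the sign turned in every library, though neither gap passed the test (edgeR adjusted p = 0.105 and 0.203). With limma both *RPL2* gaps passed (limma adjusted p = 0.0018 and 0.0069), so these calls depend on the method. *RPL2B* gave 79.9%, 73.3% and 76.4% of the unspliced *RPL2* reads in *upf1Δ* and 68.9%, 58.2% and 56.1% in *prp18Δupf1Δ*.

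The change of the gap between the strains was tested directly as an interaction. It passed in 0 of the 22 pairs by edgeR, against 6.67% of all pairs. An unadjusted p of 0.05 was reached by *RPL34* (change -1.55 ± 0.57, edgeR adjusted p = 0.121) and *RPL2* (change 1.25 ± 0.53, edgeR adjusted p = 0.140). With the replicate number as a block it passed in 4 pairs, *RPL2*, *RPL34*, *RPL36* and *RPL16*, with edgeR adjusted p of 0.00587, 0.00587, 0.00794 and 0.0217. limma on the log2 ratio of each library called 9 pairs, against 53.3% of all pairs. Without replicate 1 of *prp18Δupf1Δ*, edgeR called 5 pairs. For this setting and for the block, the share over all pairs was not counted. The values of B over A did not overlap between the strains in 10 of 22 pairs, 4 with B gaining and 6 with B losing, against 51.1% of all pairs. The block also changed calls within a strain. *RPL17*, *RPL26* and *RPL2* passed in *upf1Δ* with it (edgeR adjusted p = 0.0256, 0.0199 and 0.0138), and *RPL14* and *RPL17* in *prp18Δupf1Δ* (0.0450 and 0.0339).

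**Figure D5:**
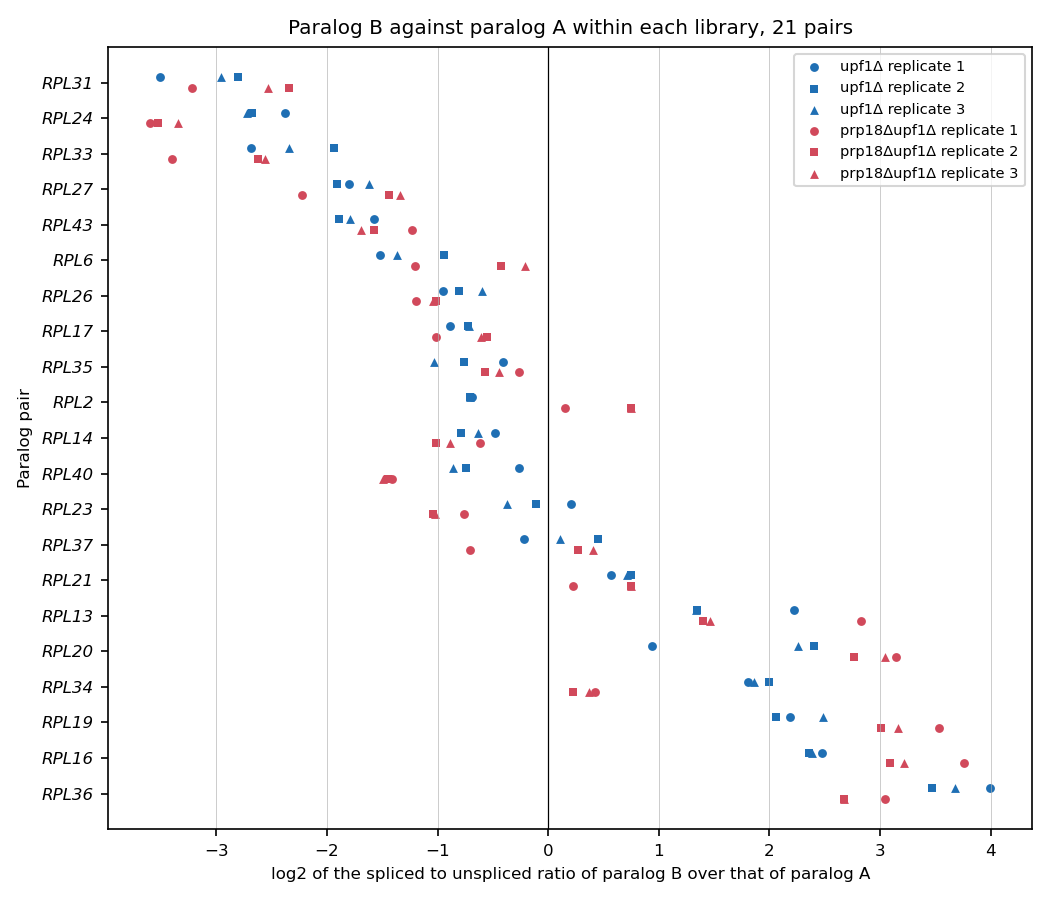
Log2 of the spliced to unspliced ratio of paralog B over that of paralog A (horizontal axis) in each of the 3 *upf1Δ* libraries (blue) and the 3 *prp18Δupf1Δ* libraries (red) for 21 of the 22 pairs (rows, ordered by the fitted value in *upf1Δ*). Points left of 0 have A better spliced, as in *RPL31* and *RPL24*, points right of 0 have B better spliced, as in *RPL36* and *RPL16*, and in *RPL34* and *RPL2* the strains lie apart.

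The share of a pair's spliced reads that came from B moved as well. *RPL14B* gave 20.9%, 21.8% and 22.5% of the spliced *RPL14* reads in *upf1Δ* and 8.60%, 9.22% and 9.36% in *prp18Δupf1Δ*. In this pair the spliced reads of A rose while those of B fell (log2 change -0.62, edgeR adjusted p = 0.00398). *RPL17B* gave 47.4%, 46.6% and 46.1% against 32.1%, 31.2% and 31.0%, beside spliced reads of its own that did not pass the test (log2 change -0.09, edgeR adjusted p = 0.484). *RPL37B* gave 59.7%, 58.1% and 54.6% against 68.7%, 72.8% and 73.5%, and *RPL16B* 64.1%, 63.4% and 64.5% against 78.3%, 73.1% and 73.6%. The strains did not overlap in any of these 4 pairs, which were chosen after their values were seen. This does not set them apart, since the share of B did not overlap in other pairs either. Among those were *RPL13*, *RPL19*, *RPL20*, *RPL24*, *RPL26*, *RPL31*, *RPL33*, *RPL35*, *RPL36* and *RPL40*. The share of all RPG pairs without such overlap was not counted.

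The exons of paralogs are similar, so reads could be placed on the wrong copy where the bases around the junction are the same. The longest run of identical bases across the exon junction was 80 nt in *RPL34* and 49 nt in *RPL2*, and at most 29 nt in 19 of the other pairs. The values of *RPL34* and *RPL2* above stand beside this overlap, and its part in them was not tested. The introns themselves differ, with lengths more than 100 nt apart in 6 pairs, the same 5′SS in 19 pairs and the same 3′SS in 16.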

How the data were processed

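Stranded paired libraries of mRNA were sequenced, 3 of *upf1Δ* and 3 of *prp18Δupf1Δ*. The authors trimmed reads, aligned them with STAR and BBMap, kept the better alignment of each read, and deposited 1 table per library with read counts per junction. The submitters' processing notes name cutadapt 1.18, STAR 2.7.0d and BBMap 38.68 with genome build R64. The deposited counts are whole reads on annotated and alternative junctions, and those used here are the junction counts that the deposit labels unique. Gapped reads on the annotated junctions of the 48 introns were 1.16, 1.31 and 1.34 times these counts in *upf1Δ*. In *prp18Δupf1Δ* they were 1.18, 1.18 and 1.19 times. With gapped reads in their place, 39 of the 48 introns passed in the direction of less splicing, where the share over all introns was not counted. The deposited unspliced values are estimated counts, since the authors summed the reads over both unspliced splice sites and divided by 2, and the deposited SE and FAnS are fraction or ratio columns. SE and FAnS were recomputed here from the counts and matched the deposited values within 1e-06 in all 12588 and 12550 entries checked. The tables merge the reads of both unspliced splice sites in 1 column, so the planned comparison of 3′SS with 5′SS reads could not be made.

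In the tests, unspliced reads were multiplied by 2 to give whole reads over both sites. edgeR 4.0.16 (R 4.3.3, quasi-likelihood, no replicate block) was fitted to 2 counts per library with a term per library for splicing and for alternative junctions, and to 4 counts per library for paralogs. Level fits were scaled to the library's annotated plus unspliced reads. Every fit ran over the whole table, with Benjamini-Hochberg adjustment over it and a threshold of 0.05. Introns needed 10 reads over the 6 libraries. For alternative junctions the filters followed the study's methods, with 6 gapped reads, perfect overhangs of 10 bp before and 40 bp after the junction, and 50% of reads free of mismatches within 10 bp. Alternatives were DESeq2 1.42.0, limma 3.58.1 (paralogs), TMM, looser and stricter filters and each library left out. The scripts were tested on simulated data. Of 2-fold changes, 52% were found for annotated splicing, 13% for single alternative junctions and 6.67% for the paralog difference between strains. Of 4-fold changes, 97%, 30% and 93.3% were found. For annotated splicing, 3 of 72 unchanged introns were called. An intron, junction or pair that did not pass can therefore still have changed by 2-fold. Same-numbered libraries deviated together (correlation over introns of 0.58, 0.30 and 0.38 for numbers 1, 2 and 3). A block on the number was therefore fitted as an alternative, from the data and not from the labels. The main fits and the exact tests did not use this pairing. Numbers 2 and 3 correlated as much across as within (0.37 and 0.34), and number 1 with the others at -0.52 to -0.41, so only number 1 is set apart by this check.

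The members, the lists and the tests were chosen with earlier results of these data known. Named introns were the 10 largest falls of SE past the threshold with the strains apart, those not past it, the 5 lowest and 3 highest SE in *upf1Δ*, the 4 largest rises and falls of each level, the largest rises and falls per intron of alternative 3′SS (6 and 4) and 5′SS (4 and 4), single junctions with 20 gapped reads (8 largest rises, 5 largest falls), the pairs past the threshold, and *RPL24B* and *RPL40B*. Junctions and introns outside this rule, such as *RPL29*, *RPL17B* and *RPL36A*, were chosen after their values were seen. One member is counted in all totals but not reported by itself here, nor is its pair. Folds against a count of 0 use 3 reads over the strain as the limit.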

Additional observations from a re-analysis of the deposited data

How the results depend on the processing

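No value past the threshold changed sign under any alternative, while 75 of 3576 single values did, in 32 of 334 results, with 0 of them past the threshold in either fit. With 1 library left out, the log2 change of splicing ran from -0.75 to 0.12 in *RPL37A* and from -1.14 to 0.0019 in *RPL20B*, that of annotated junction reads in *RPL21B* from -0.090 to 0.017, B over A in *upf1Δ* from -0.24 to 0.050 in *RPL23* and from -0.053 to 0.28 in *RPL37*, in *prp18Δupf1Δ* from -0.22 to 0.33 in *RPL37*, and the difference between strains in *RPL27* from -0.055 to 0.39. With the replicate block B over A was 0.13 in *RPL23* and -0.40 in *RPL37* in *upf1Δ* and -0.52 in *RPL37* in *prp18Δupf1Δ*, where limma gave -0.013, and annotated junction reads of *RPL43A* changed by -0.023 with DESeq2. The median SE difference of -3.65 points was -3.64 with reads pooled over the introns, -5.04 to -2.93 with 1 library left out, and -4.79 without replicate 1 of both strains, an alternative chosen after the data were seen. TMM scaling called 1 fall of unspliced reads. Falls of annotated junction reads numbered 27 with the replicate block, 22 with DESeq2, 31 without replicate 1 of both strains and 9 to 23 with 1 library left out, and rises 7 with the block and 8 without replicate 1. Falls of alternative 3′SS per intron numbered 2 with DESeq2, 3 without replicate 1 and 3 to 5 with 1 library left out. Falls of alternative 5′SS per intron numbered 10 without replicate 1. Of single alternative junctions, 14 rose without replicate 1 and 15 with at least 20 gapped reads. The falls numbered 15 with DESeq2, 19 without a filter on low counts, 11 without replicate 1 and 15 to 28 with 1 library left out, lowest without replicate 3 of *prp18Δupf1Δ* and 19 without its replicate 1. Pairs with A ahead in *upf1Δ* numbered 14 without replicate 1, 13 with limma and 5 to 12 with 1 library left out, and in *prp18Δupf1Δ* 13 without replicate 1 and with limma. Pairs with B ahead in *prp18Δupf1Δ* numbered 9 without replicate 1 and 8 with limma. The difference between strains passed with B gaining in 2 pairs with the block, 7 without replicate 1, 4 with limma and 0 to 2 with 1 library left out, and with B losing in 2, 8, 5 and 0 to 3. The causes were not tested. Apart from the limma count of the difference between strains, the shares over all features were not counted under these settings. Beside the results named with the block in the report, the replicate block took 1 call of alternative 3′SS per intron (*RPL34B*) and left 25 falls of single junctions. Unspliced reads across the 5′SS alone and the 3′SS alone could not be used, since the tables merge them. Without a filter on low counts the paralog fit had the same pairs and was not run again.

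Depth limits the alternative junctions most, since many rest on fewer than 20 reads. The counts are of PCR products without molecular identifiers, so the limits for a count of 0 cover counting error only. The deletions could not be checked, replicate 1 of both strains stood apart, and 3 libraries against 3 allow no exact p below 0.1. Levels are relative to the reads of intron-containing transcripts in each library.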
